A study of Sus scrofa with 15 samples.

Results

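Tissue inhibitors of metalloproteinases (TIMPs) and the zinc-dependent proteases that they restrain were examined in the liver transcriptome of piglets 4 h after lipopolysaccharide (LPS), the endotoxin of Gram-negative bacteria. The set held 10 gene symbols: the inhibitors TIMP1, TIMP2 and TIMP3, the matrix metalloproteinases MMP2, MMP14 and MMP19, the thrombospondin-motif proteases ADAMTS1, ADAMTS4 and ADAMTS9, and the cell-surface sheddase ADAM17. The members were rows of the count table that the pig symbol table pairs with one of these names, which gave 9 of the 31908 genes in the table, and TIMP2 is not paired with an identifier and was not analysed here. All 9 passed the filter on low counts and were among the 12774 genes tested. Not every CON library reached this filter for ADAMTS4, which passed with the help of the LPS group.

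The animals were growing male piglets (Duroc x Large White x Landrace), whose age is not given. The CON group received sterile saline, and the LPS group received 80 μg/kg of LPS into the peritoneal cavity. Polyadenylated liver RNA was fragmented, and the input portion, kept back before the antibody step that enriches RNA with the m6A modification, was sequenced in 3 libraries per group. Which piglet gave which library is not stated, so the p-values measure the spread between these libraries only. The libraries held between 4348478 and 19967417 counts. All 10 hepatocyte markers looked for, ALB, APOA1, APOB and TTR among them, were detected in every library, SERPINA1 with only 10 to 38 counts, and their summed levels were 49626 to 64148 CPM (read counts scaled to library size) in the CON group against 30279 to 61967 in the LPS group. LPS replicate 2 lay closer to the CON libraries than the other LPS libraries did: its log2 CPM correlated with theirs at 0.923 to 0.945 across genes, which are not independent replicates, against 0.837 to 0.899 for LPS replicates 1 and 3. Results that rest on this library are therefore also given without it. Because it was singled out for lying near the CON group, leaving it out favours a wider difference between the groups, and those values are a description and no support for a call.

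Metalloproteinases cut the proteins of the extracellular matrix and release membrane-bound proteins from the cell surface. They are made as inactive precursors, are activated by other proteases, and are held in check by TIMPs, which bind the active site. In liver these enzymes and inhibitors are known for their part in matrix turnover by stellate, endothelial and immune cells, and TIMP1 is known as an acute-phase gene.

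In the LPS group, 8 of the 9 genes had a higher fitted level than in the CON group, and MMP19 was the 1 gene with a lower level. A gene was called when edgeR's quasi-likelihood test gave a Benjamini-Hochberg adjusted p below 0.05 over all tested genes and a fold change above 1.5. By this rule 0 members were called higher and 0 lower, where 0.0548% of all tested genes were called higher and 0% lower. At an unadjusted p below 0.05, 5 members were higher (TIMP1, ADAMTS1, TIMP3, ADAMTS4 and ADAMTS9) and 1 was lower (MMP19), against 6.18% and 6.33% of all tested genes. DESeq2 called 4 members higher (TIMP1, ADAMTS1, ADAMTS4 and TIMP3) and MMP19 lower at the same thresholds, where it called 1.91% of genes higher and 0.995% lower. With LPS replicate 2 left out, edgeR called these 5 genes, in a setting that called 3.76% of all genes higher and 3.45% lower, far more than with all libraries. ADAMTS4 passed the filter with the help of the LPS group, where it is high, so its place in all these counts carries no weight. The median log2 fold change of the 9 genes was 1.22, and that of all tested genes was 0.01.

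**Figure D1:**
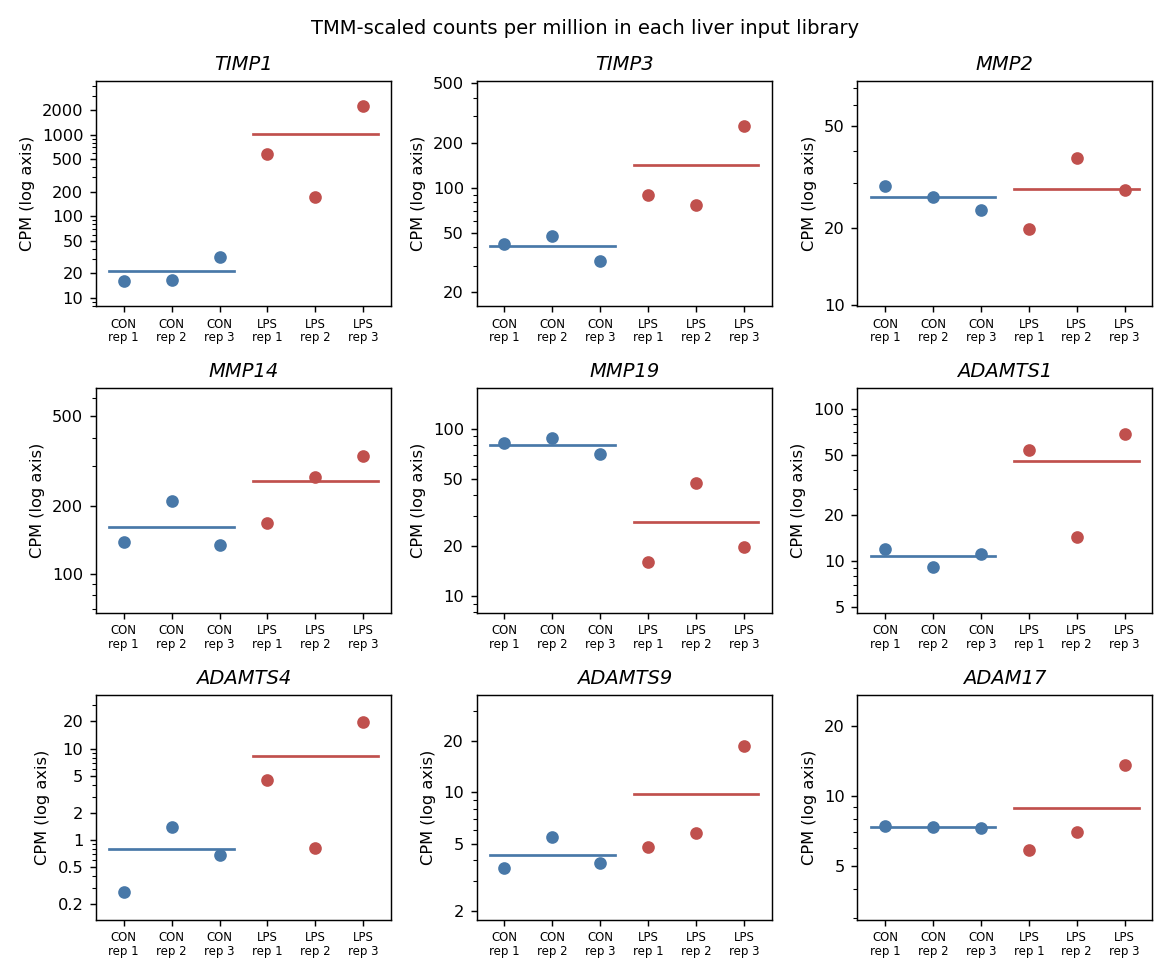
CPM (read counts scaled to library size) of the 9 genes in the 3 CON (blue) and 3 LPS (red) libraries, with each group's mean as a line; each panel has its own logarithmic axis. TIMP1, TIMP3 and ADAMTS1 lie above every CON library in all 3 LPS libraries, MMP19 lies below, and the other genes overlap.

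In 3 members (TIMP1, TIMP3 and ADAMTS1) every LPS library lay above every CON library, and in 1 (MMP19) every LPS library lay below. Over all tested genes these patterns held for 6.52% and 9.80%. With 3 libraries per group, an exact two-sided permutation test of 1 gene over its 20 assignments cannot give a p below 0.1, the value that these 4 genes had.

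TIMP1, a secreted inhibitor of most matrix metalloproteinases, had the largest fold change of the 9 genes. Its levels were 16.0, 16.7 and 32.2 CPM in CON replicates 1, 2 and 3, and 578, 175 and 2276 CPM in LPS replicates 1, 2 and 3, the order kept for all genes. The lowest LPS library was thus several times above the highest CON library, and the LPS libraries differed among themselves far more than the CON libraries did. The group means were 21.6 ± 9.2 and 1010 ± 1115 CPM (SD, n = 3 per group). The fitted log2 fold change was 5.54 ± 0.93 (SE), at an edgeR-adjusted p of 0.0847, rank 29 of 12774 genes by p. DESeq2 gave 5.58 with an adjusted p of 2.26e-13. It was 1 of 13 alternatives, of which 6 called TIMP1. Their adjusted p ran from 3.96e-24 (edgeR without the filter on low counts) to 0.586. The p-values of the run without the filter make no allowance for the small number of libraries and carry no weight here. The fold rested in part on the deepest library: without LPS replicate 3 the log2 fold change was 4.13 (edgeR adjusted p = 0.0210), whereas leaving out LPS replicate 2 gave 6.05 (edgeR adjusted p = 0.000962). Scaling to total counts gave 5.21 and an edgeR adjusted p of 0.0471. TIMP1 (ENSSSCG00000012277) lies on chromosome X from 42102172 to 42106297 on the plus strand, inside the span of SYN1 on the other strand, with no exon bases in common; coordinates are those of the deposited table, whose genome build is not stated in the sources at hand.

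TIMP3, the inhibitor that binds to the matrix and also inhibits ADAM17 and several ADAMTS proteases, had a smaller fold change. Its values were 41.8, 47.8 and 32.3 CPM under saline and 90.1, 76.9 and 259 CPM after LPS. LPS replicates 1 and 2 were close to each other, and LPS replicate 3 stood apart. The log2 fold change was 1.81 ± 0.48 (SE), at an edgeR-adjusted p of 0.212, and it was 1.06 without LPS replicate 3 and 2.11 without LPS replicate 2 (edgeR adjusted p = 0.0182). DESeq2 called it with an adjusted p of 0.0107, and the adjusted p of the 13 alternatives ran from 0.000982 (edgeR without the filter) to 0.688. TIMP3 (ENSSSCG00000031866) lies on chromosome 5 from 12185816 to 12242637 on the minus strand.

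Within each library the balance between both inhibitors can be read without any scaling between libraries. Per base of gene length, TIMP1 had 1.69, 1.55 and 4.42 times the counts of TIMP3 in CON replicates 1, 2 and 3, and 28.4, 10.1 and 38.9 times in LPS replicates 1, 2 and 3. TIMP1 therefore made up 60.8% to 81.5% of the summed length-scaled counts of TIMP1 and TIMP3 in the CON libraries and 91.0% to 97.5% in the LPS libraries, with no overlap.

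MMP19 was the member that was lower in the LPS group. This secreted protease cuts basement membrane proteins. It had 82.2, 87.8 and 70.8 CPM under saline and 15.9, 47.4 and 19.7 CPM after LPS. The CON values were close together, LPS replicates 1 and 3 were far below them, and LPS replicate 2 was in between. The mean level was 80.3 ± 8.7 CPM in the CON group against 27.7 ± 17.2 CPM in the LPS group (SD, n = 3), a log2 fold change of -1.54 ± 0.42 (SE), at an edgeR-adjusted p of 0.218. DESeq2 gave -1.50 and an adjusted p of 0.0357, and edgeR without LPS replicate 2 gave -2.16 and 0.00654. Over the 13 alternatives the log2 fold change lay between -2.16 and -1.25, with adjusted p from 0.0049 (edgeR without the filter) to 0.688. MMP19 (ENSSSCG00000000368) lies on chromosome 5 from 21280130 to 21285774 on the minus strand and shares no span with another gene of the table.

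MMP14, a membrane-anchored collagenase that activates the precursor of MMP2, had 137, 209 and 134 CPM under saline and 168, 268 and 332 CPM after LPS. LPS replicate 1 lay inside the CON range, and the log2 fold change was 0.68 ± 0.36 (SE), at an edgeR-adjusted p of 0.476. MMP2, a secreted gelatinase, had 29.0, 26.4 and 23.5 CPM under saline and 19.8, 37.3 and 28.0 CPM after LPS. These values surround the CON range on both sides, and the log2 fold change of 0.11 was smaller than its SE of 0.32 (edgeR-adjusted p = 0.918). MMP14 (ENSSSCG00000002039) lies on chromosome 7 from 76174500 to 76185923 and shares 201 exon bases with SLC7A7 on the opposite strand, and MMP2 (ENSSSCG00000002829) lies on chromosome 6 from 30058594 to 30086982, both on the minus strand. The sign of the MMP2 value turned with scaling to total counts and when LPS replicate 2 was left out.

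Among the ADAMTS proteases, ADAMTS1, which cuts the proteoglycans versican and aggrecan, was higher in each LPS library than in every CON library. It had 12.1, 9.22 and 11.3 CPM under saline and 54.1, 14.6 and 68.6 CPM after LPS. LPS replicate 2 was only slightly above the highest CON library, and the other LPS libraries were well above it. The log2 fold change was 2.07 ± 0.51 (SE), at an edgeR-adjusted p of 0.180, and it was 1.67 without LPS replicate 3 and 2.50 without LPS replicate 2 (edgeR adjusted p = 0.00256). DESeq2 gave an adjusted p of 0.00464, and the 13 alternatives gave 5.06e-05 (edgeR without the filter) to 0.688. ADAMTS1 (ENSSSCG00000012026) lies on the minus strand of chromosome 13 from 190276424 to 190286205.

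ADAMTS4, an aggrecanase, was near the limit of detection in CON liver, with 3, 9 and 7 counts in CON replicates 1, 2 and 3. In the LPS replicates it had 21, 5 and 288 counts. Scaled to library size these were 0.268, 1.41 and 0.692 CPM against 4.58, 0.818 and 19.7 CPM, so LPS replicate 2 lay inside the CON range and the groups overlapped. The log2 fold change was 3.52 ± 1.05 (SE), at an edgeR-adjusted p of 0.237. The ratio of summed counts after scaling was 18.1, and its exact 95% limits, 11.4 and 30.4, reflect counting error alone and not the spread between libraries. Most of the LPS counts came from LPS replicate 3, and without that library ADAMTS4 fell below the filter and was not tested. Without LPS replicate 2 edgeR called it (log2 fold change 4.07, adjusted p = 0.0102), as did DESeq2 on all libraries (adjusted p = 0.0073). Its 11 alternatives gave adjusted p from 6.40e-07 (edgeR without the filter) to 0.710. Not every CON library reached the filter for ADAMTS4, which passed with the help of the LPS group, where it is high. Its fitted fold change, its test and these calls therefore carry no weight here. ADAMTS4 (ENSSSCG00000006359) lies on the plus strand of chromosome 4 from 89260460 to 89269245. It shares 252 exon bases with a gene on the opposite strand that had 280 to 632 counts per library. Whether strand was used in counting is not stated.

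ADAMTS9, which also cuts versican and aggrecan, had 3.57, 5.47 and 3.86 CPM under saline. It had 4.80, 5.73 and 18.7 CPM after LPS, so LPS replicate 3 alone was far from the CON values. The log2 fold change was 1.22 ± 0.54 (SE), at an edgeR-adjusted p of 0.397, and it was 0.32 without LPS replicate 3. Its gene, ENSSSCG00000011496, spans 46034816 to 46207006 on the minus strand of chromosome 13. ADAM17, which releases TNF-α and other membrane-bound proteins, had 7.42, 7.34 and 7.32 CPM under saline and 5.89, 7.03 and 13.7 CPM after LPS. These rest on 83, 47 and 74 counts in the CON libraries and 27, 43 and 200 in the LPS libraries, where counting error is wider than the CON range. LPS replicates 1 and 2 lay below that range and LPS replicate 3 above it, but at these counts the places of LPS replicates 1 and 2 carry no weight. The log2 fold change was 0.29 ± 0.40 (SE, edgeR-adjusted p = 0.799). This value became -0.17 without LPS replicate 3. ADAM17 (ENSSSCG00000008641) lies on the plus strand of chromosome 3 from 126795426 to 126853995. Of the 5538 bases in its gene model, 2879 are shared with IAH1 on the opposite strand, so reads of ADAM17 and IAH1 cannot be told apart there if strand was not used in counting, which the sources at hand do not state.

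**Figure D2:**
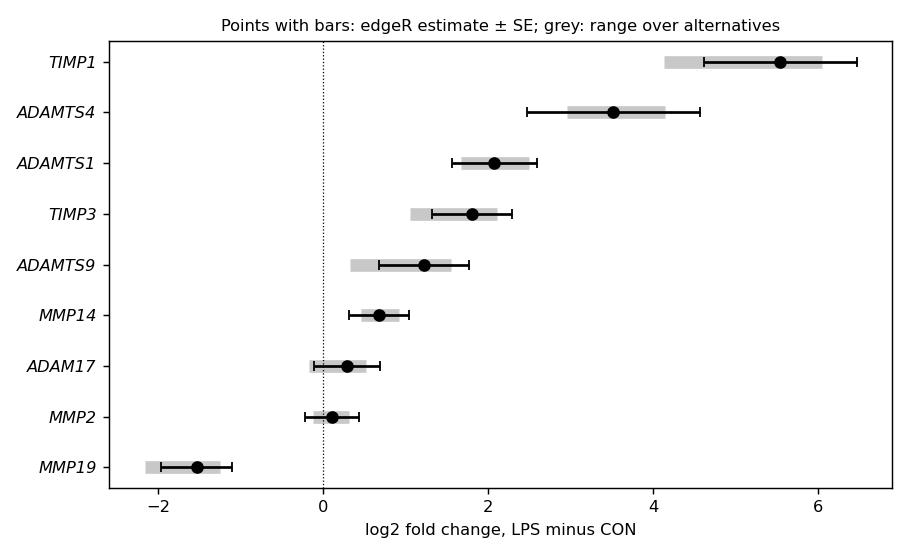
Fitted log2 fold change (LPS minus CON) of each gene with its standard error (edgeR, 3 libraries per group), over a grey band that spans the 11 to 13 alternative analyses of that gene. TIMP1, ADAMTS4, ADAMTS1, TIMP3, ADAMTS9 and MMP14 stay above 0 and MMP19 below 0 over the whole band, while the bands of MMP2 and ADAM17 cross 0. ADAMTS4 passed the filter with the help of the LPS group, so its place carries no weight.

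The 3 LPS libraries took a similar order in most members. LPS replicate 3 had the highest level of the LPS libraries in 7 of the 9 genes, the exceptions being MMP19 and MMP2, where LPS replicate 2 was highest. LPS replicate 2 was lowest in TIMP1, TIMP3, ADAMTS1 and ADAMTS4, and LPS replicate 1 in the other 5. In the 4 genes with groups that did not overlap, LPS replicate 2 was the LPS library nearest to the CON group. Relative to the CON mean on the log2 scale (0.5 CPM added), TIMP1 was 4.78, 3.06 and 6.76 higher in LPS replicates 1, 2 and 3, and MMP19 differed by -2.29, -0.75 and -1.99.

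Levels of different genes were compared as CPM per kilobase of gene model. In the CON group MMP19 had the highest value, with 52.8 ± 5.7 CPM per kilobase, followed by MMP14 with 38.5 ± 10.1 and TIMP1 with 20.9 ± 8.8 (SD, n = 3). The ranges of MMP19 and MMP14 overlapped, whereas the highest TIMP1 value, 31.1, was just below the lowest MMP14 value, 32.3. TIMP3 (8.84 ± 1.70) and MMP2 (7.46 ± 0.78) followed and overlapped with each other. ADAMTS1 (2.17 ± 0.29) and ADAM17 (1.33 ± 0.01) came next, each in a range of its own. ADAMTS9 (0.363 ± 0.086) and ADAMTS4 (0.212 ± 0.154) were lowest and overlapped.

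In the LPS group the order began with TIMP1, at 973 ± 1075 CPM per kilobase, followed by MMP14 (61.6 ± 19.9), TIMP3 (30.9 ± 22.1) and MMP19 (18.2 ± 11.3). MMP19 thus went from the first place to the fourth, and TIMP1 from the third to the first. The TIMP1 range, from 168 to 2193, lay above the MMP14 range, whose highest value was 79.9. The MMP14, TIMP3 and MMP19 ranges each overlapped with that of the next gene.

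**Figure D3:**
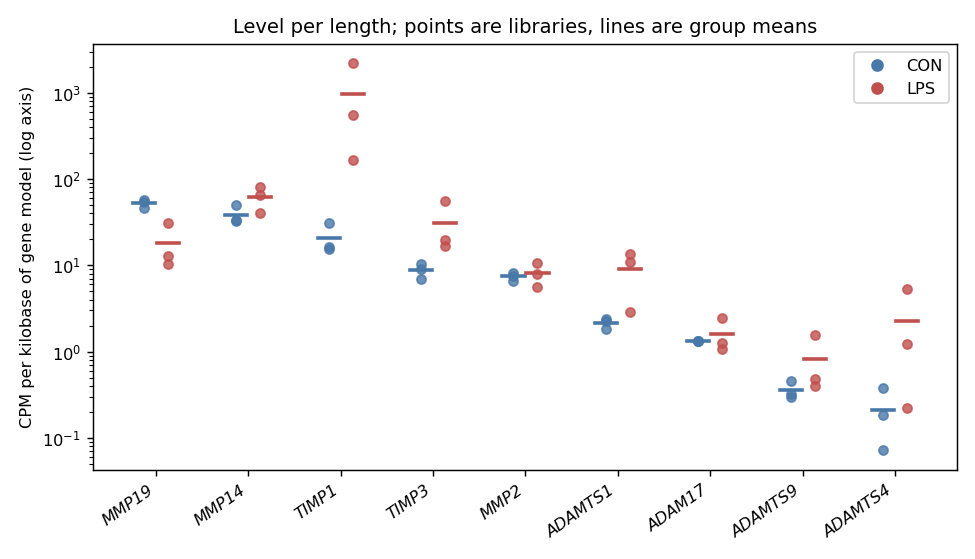
CPM per kilobase of gene model (logarithmic axis) in the CON (blue) and LPS (red) libraries, ordered by the CON mean, with points for libraries and lines for group means. MMP19 leads in the CON group at 52.8 and TIMP1 leads in the LPS group at 973.

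Taken as a share of the length-scaled counts of the 7 protease genes within each library, MMP19 held 54.3%, 48.3% and 52.0% under saline and 15.0%, 28.0% and 10.5% after LPS. MMP14 held 33.3%, 42.0% and 36.0% under saline and 57.7%, 58.1% and 64.5% after LPS. The leading protease mRNA of the set was MMP19 in each CON library and MMP14 in each LPS library. The 3 ADAMTS genes together held 2.71% ± 0.43 in the CON group against 12.5% ± 8.1 in the LPS group (SD, n = 3), with 3.24% in LPS replicate 2. The shares of MMP2 and of ADAM17 overlapped between the groups. The summed length-scaled counts of TIMP1 and TIMP3 were 0.246, 0.222 and 0.425 times those of the 7 proteases under saline, and 8.24, 1.66 and 18.2 times after LPS. The sum of TIMP1 and TIMP3 was thus below that of these 7 proteases in every CON library and above it in every LPS library. TIMP2 and the other proteases of the family are not in these sums. These are ratios of mRNA counts and hold no measure of protein or of protease activity. They also do not show which of these proteases TIMP1 or TIMP3 inhibits. Since the ratios were chosen with the values of these genes known, they are given with no test.

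**Figure D4:**
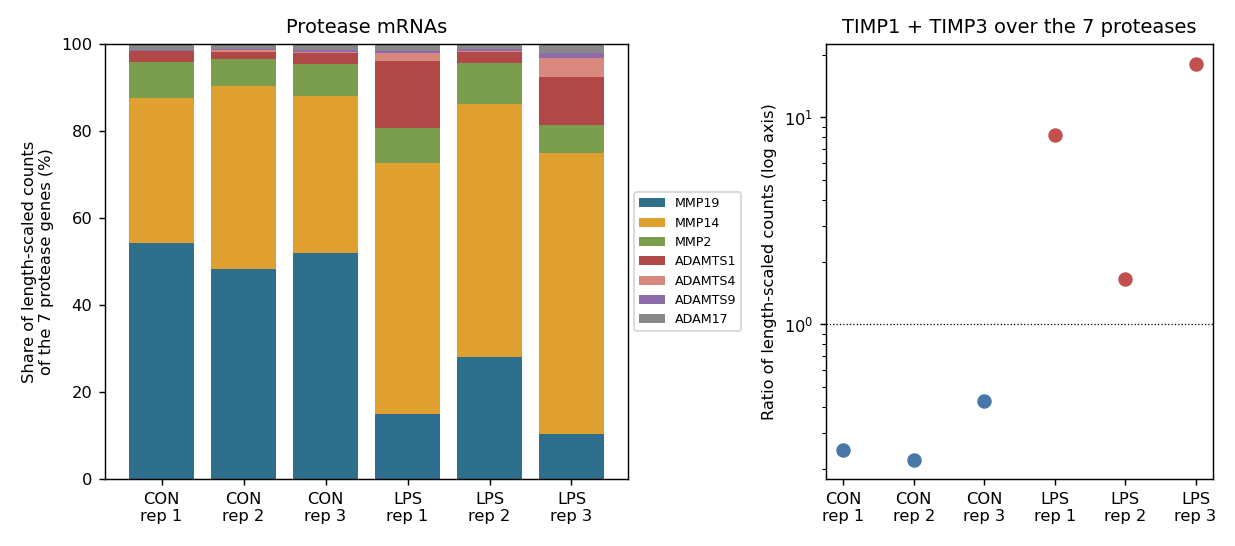
Left, the share (%) of each gene in the length-scaled counts of the 7 protease genes, in stacked bars for each library. Right, the ratio of TIMP1 plus TIMP3 to the 7 proteases on a logarithmic axis, with CON in blue, LPS in red and a dotted line at equality; the CON libraries lie between 0.222 and 0.425 and the LPS libraries between 1.66 and 18.2.

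The rest of the TIMP, MMP, ADAM and ADAMTS families was described from a list of 48 further genes, of which 27 were tested. At an unadjusted p below 0.05, 5 were higher (ADAMTS8, ADAMTS15, MMP7, MMP9 and ADAM8) and 3 were lower (ADAM23, MMP11 and MMP17). The shares over all tested genes were 6.18% and 6.33%, and edgeR called 0 of the 27 after adjustment. DESeq2 called 2 higher and 0 lower, against 1.91% and 0.995% of all genes. EdgeR without LPS replicate 2 called 5 and 2, against 3.76% and 3.45% of all genes. The median log2 fold change of the 27 genes was 0.04. ADAMTS8 had 4, 0 and 4 counts under saline and 41, 11 and 362 counts after LPS. It passed the filter on low counts only through the LPS group, where it is high. Its fitted fold change, its test and its place in these counts therefore carry no weight here. ADAMTS15, a proteoglycan-cutting protease, was even across the LPS libraries, with 11.1, 9.49 and 9.83 CPM against 4.11, 4.22 and 4.84 CPM under saline (log2 fold change 1.20 ± 0.34, edgeR-adjusted p = 0.218). For MMP7, or matrilysin, an epithelial protease, the log2 fold change was 2.08 ± 0.61 (SE), at an edgeR-adjusted p of 0.224. MMP9, a gelatinase that neutrophils store, had 5.23, 1.96 and 8.94 CPM after LPS against 0.983, 1.56 and 2.08 CPM under saline, and the groups overlapped. Not every CON library reached the filter for MMP7 and MMP9, which passed with the help of the LPS group. ADAM23, which lacks protease activity, was lower in all LPS libraries, with a log2 fold change of -1.52 ± 0.48 (SE), at an edgeR-adjusted p of 0.257. MMP11, MMP17 and ADAM8 were named after their values were seen, to complete these counts.

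**Figure D5:**
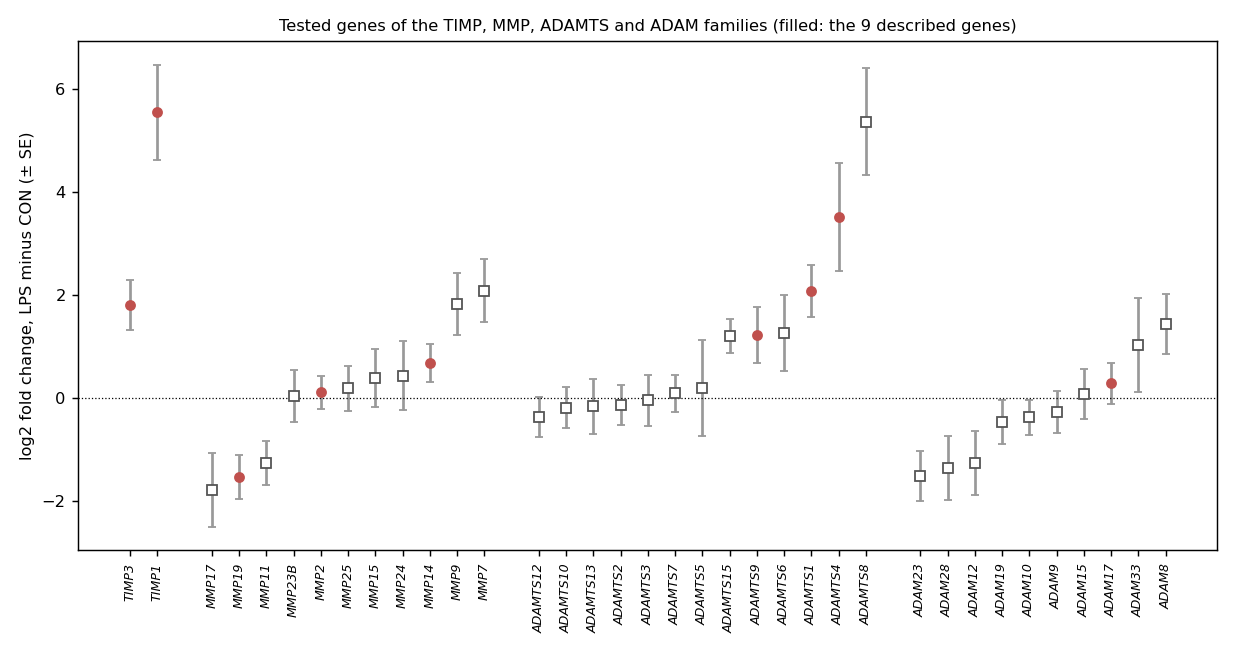
Fitted log2 fold changes (LPS minus CON) with standard errors for the tested TIMP, MMP, ADAMTS and ADAM genes, ordered within each family; filled circles are the 9 described genes and open squares the 27 others. TIMP1, at 5.54, is the highest point and MMP17, at -1.78, the lowest; ADAMTS8 is plotted from a CON group of 0 to 4 counts and passed the filter only through the LPS group.

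Genes that activate metalloproteinases, inhibit them or clear them from the matrix were described from a list of 17, with 14 tested. Of these, 13 had a higher fitted level in the LPS group and 1 a lower one, with a median log2 fold change of 0.61. At an unadjusted p below 0.05, 6 were higher and 0 were lower, against 6.18% and 6.33% of all tested genes. After adjustment edgeR called 0, while DESeq2 called 5 higher, against 1.91% of all genes that it tested. PLAT, the tissue plasminogen activator that starts the plasmin cascade, had 3.31, 4.37 and 3.07 CPM under saline and 47.1, 14.1 and 342 CPM after LPS, with no overlap (log2 fold change 5.24 ± 1.09, edgeR-adjusted p = 0.119). As in TIMP1, LPS replicate 3 was highest and LPS replicate 2 lowest of the LPS libraries. CD44, a hyaluronan receptor that docks proteases at the cell surface, had a log2 fold change of 2.37 ± 0.58 (SE), at an edgeR-adjusted p of 0.179. The proprotein convertase PCSK5, with 1.38 ± 0.38 (SE), at an edgeR-adjusted p of 0.218, and the matrix glycoprotein THBS1, with 2.66 ± 0.75 (SE), at an edgeR-adjusted p of 0.221, were likewise higher in each LPS library than in every CON library.

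Of 18 tested partners and substrates of ADAM17, 12 had a higher and 6 a lower fitted level. At an unadjusted p below 0.05 FRMD8 was higher and MERTK was lower, against 6.18% and 6.33% of all tested genes. EdgeR and DESeq2 called 0 each, and the median log2 fold change was 0.53. FRMD8, which stabilises ADAM17 at the cell surface, had 37.5, 53.2 and 31.1 CPM after LPS and 22.1, 27.0 and 24.6 CPM under saline. MERTK, a macrophage receptor shed by ADAM17, had 8.29, 12.6 and 9.01 CPM against 17.2, 16.4 and 19.1 CPM. Neither pair of groups overlapped, and the edgeR adjusted p were 0.385 for FRMD8 and 0.350 for MERTK. Over all tested genes, every LPS library lay above every CON library in 6.52% and below in 9.8%.

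Matrix proteins on which these proteases act were covered by 30 tested genes, 11 with a higher and 19 with a lower fitted level, and a median log2 fold change of -0.23. At an unadjusted p below 0.05, 2 were higher (TNC and COL4A1) and 1 was lower (NID1), against 6.18% and 6.33% of all tested genes. After adjustment edgeR called 0, where DESeq2 called 1 higher, against 1.91% of all genes that it tested. TNC, the matrix glycoprotein tenascin C, had 4.11, 4.22 and 4.05 CPM under saline and 108, 31.2 and 309 CPM after LPS. Its order of libraries was that of TIMP1, and its log2 fold change was 5.18 ± 0.78 (SE), at an edgeR-adjusted p of 0.0661. NID1, or nidogen, a basement membrane linker, had 354, 441 and 312 CPM under saline and 86.3, 250 and 169 CPM after LPS (log2 fold change -1.13 ± 0.41, edgeR-adjusted p = 0.312). COL4A1, a chain of basement membrane collagen, had 128, 157 and 141 CPM under saline and 229, 231 and 273 CPM after LPS (log2 fold change 0.79 ± 0.29, edgeR-adjusted p = 0.317).

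In bulk liver, fewer cells of a type and less RNA per cell cannot be told apart, so the level of marker lists is given beside these genes. The 15 markers of stellate cells or fibroblasts, which express MMP2, MMP14 and TIMPs, had summed levels of 1167 to 1611 CPM in the CON group against 916 to 1817 CPM in the LPS group, and 6 of 14 tested markers had a higher fitted level and 8 a lower one. Of the 11 tested Kupffer cell or macrophage markers 10 had a lower fitted level, among them MRC1, TIMD4 and VSIG4 with log2 fold changes of -1.25, -1.07 and -0.93. The median of the list was -0.48. The 1 marker with a higher fitted level was CD14, at 1.06 with overlapping groups, named beyond the naming rule because it went the other way. The summed level overlapped (2513 to 4069 CPM against 2730 to 4210 CPM). Of the 9 tested endothelial markers 6 had a lower fitted level, and the sums overlapped at 316 to 579 CPM and 312 to 417 CPM. Of the 7 tested neutrophil markers 6 had a higher fitted level, and the sums did not overlap, at 35.3 to 67.1 CPM in the CON group against 107 to 204 CPM in the LPS group. Among them S100A8, a granulocyte calcium-binding protein, had 4, 2 and 4 counts under saline and 65, 31 and 376 counts after LPS. LTF had 3, 0 and 10 counts under saline and 9, 8 and 126 after LPS. Both passed the filter on low counts only through the LPS group, so their place in this count carries no weight. MMP8 and MMP9, which belong to the families described here, are also in this marker list and its sums. All 6 tested cholangiocyte markers had a higher fitted level, with sums of 37.3 to 44.1 CPM and 53.7 to 156 CPM. Not every CON library reached the filter for EPCAM and SOX9, which passed with the help of the LPS group, so their place in this count carries no weight. In these sums SPP1 had 39.5, 14.2 and 87.7 CPM after LPS and 15.9, 25.5 and 10.3 CPM under saline, and its groups overlapped. For T or NK cells, 6 of 8 tested markers had a lower fitted level, and the sums overlapped at 130 to 162 CPM and 66.5 to 148 CPM. The part of these cell types in the differences of the metalloproteinase and TIMP genes was not tested.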

How the data were processed

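Liver input RNA of 3 CON and 3 LPS libraries was compared, and the m6A-IP libraries were not analysed here. The authors deposited raw read counts per Ensembl pig gene, with no normalization, beside exon coordinates and gene length. The submitters' processing notes name cutadapt 1.9.3 and HISAT2, and the builds galGal6 and hg38, neither of which is a pig genome. No source at hand states the counting program, the pig build, the use of strand or the handling of reads that map to several genes. The labels give CON replicates 1 and 2 more than 1 sequencing entry, but each fills a single column. A pig symbol table named 15029 of the 31908 identifiers.

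Depth ran from 4348478 to 19967417 counts per library, so counting error was largest for ADAMTS4 and other genes with few counts. The main model was fitted in edgeR 4.0.16 (R 4.3.3): filterByExpr (minimum count 10), TMM scaling (factor 0.735 in LPS replicate 3, 0.979 to 1.11 elsewhere), robust dispersions, glmQLFit and glmQLFTest, with Benjamini-Hochberg adjustment over all 12774 tested genes. The thresholds (adjusted p below 0.05, fold above 1.5) follow the axes of the volcano plot in the paper, which names no RNA-seq test. The standard error (SE) was derived from each log2 fold change and its F statistic. CPM are TMM-scaled, and levels of different genes are CPM per kilobase of the table's gene length. The functions were tested on simulated data with known changes.

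The members and gene lists were chosen with earlier results of these data known, the lists from general knowledge. Members were named in full. Some items that the naming rule or the annotation would bring in are not reported here. From each other list at most 5 tested genes, and from each marker list at most 3, with an unadjusted p below 0.05 could be named, by the smallest p. As alternatives, DESeq2 1.42.0 and limma-voom (limma 3.58.1) were run, scaling was changed to RLE factors or total counts, the filter was dropped or raised to 10 counts per library in all libraries, the fold threshold was dropped or set to 2, each library was left out in turn, and replicate number was added as a block.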

Additional observations from a re-analysis of the deposited data

How the results depend on the processing

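With all libraries and the filter, edgeR called 0 members in either direction, as it did with RLE factors, with at least 10 counts in every library, without a fold threshold and with a 2-fold threshold, and as limma-voom did. Over all tested genes, each of these settings called at most 8 higher and 1 lower. Scaling to total counts gave 1 member called higher (TIMP1) and 0 lower, and moved the median log2 fold change of all genes from 0.01 to -0.12. With this scaling, 11 of all 12774 tested genes were called higher and 1 lower. Without the filter on low counts, and with DESeq2, 4 members were called higher and 1 lower (TIMP1, TIMP3, ADAMTS1 and ADAMTS4 higher, MMP19 lower). Without the filter edgeR called 536 of 23529 genes higher and 349 lower, and DESeq2 called 275 of 14372 higher and 143 lower. The main fit called 7 and 0 of 12774. The edgeR p-values without the filter match a normal distribution of fold change over SE. They make no allowance for the small number of libraries and carry no weight here. Nor does ADAMTS4 in these counts. Leaving out 1 library gave 0 to 4 higher and 0 to 1 lower: 4 and 1 without LPS replicate 2, the LPS library nearest to the CON group, 1 (TIMP1) and 0 without LPS replicate 3, and 0 without LPS replicate 1 or any CON library. Over all tested genes, 512 were called higher and 470 lower without LPS replicate 2, and 39 and 19 without LPS replicate 3. Without LPS replicate 1, 1 was called higher and 0 lower. The log2 fold change of MMP2 was -0.0045 with total counts and lay between -0.13 and 0.32 with 1 library left out. That of ADAM17 lay between -0.17 and 0.52 with 1 library left out. Of 115 values of single members over these alternatives, 94 kept direction and call, 18 moved past the threshold and 3 changed sign. The cause of these changes was not tested.

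The deviations of same-numbered libraries from their group means correlated at -0.24, 0.22 and 0.03 for numbers 1, 2 and 3. CON replicate 2 and LPS replicate 2 correlated best with each other, and the other libraries did not correlate best with their own number. With 3 libraries per group these values cannot tell whether same-numbered libraries share more than a number. With the replicate block, edgeR called 1 member higher (TIMP1) and 0 lower. Over the whole table it called 42 genes higher and 9 lower, against 7 and 0 without the block. Depth limits ADAMTS4 most, with 3 counts in CON replicate 1 and 5 in LPS replicate 2.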

Other observations

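MMP8, the collagenase that neutrophils store, and MMP1, the interstitial collagenase, lie close together on chromosome 9 and fell below the filter on low counts. They were singled out after their values were seen. MMP8 (ENSSSCG00000029675, from 33384028 to 33396947) had 0 counts in each CON library and 18, 5 and 271 counts in LPS replicates 1, 2 and 3. Against a floor of 3 counts over the CON group, its pooled level in the LPS group was at least 107-fold higher, a bound that covers counting error only. MMP1 (ENSSSCG00000014985, from 33411065 to 33454000) had 0 counts in each CON library and 24, 0 and 318 counts in LPS replicates 1, 2 and 3, and LPS replicate 2 was thus at 0 like the CON libraries. Its pooled level in the LPS group was at least 125-fold higher against the same floor. DESeq2 gave adjusted p of 0.00609 for MMP8 and 0.270 for MMP1, and edgeR without the filter gave 4.14e-16 and 7.02e-18. Both genes were picked by their values and had 0 counts in every CON library, so these p-values carry no weight here. Most of the LPS counts of both genes came from LPS replicate 3. TIMP4, the other TIMP in the table, likewise picked out after its counts were seen, had at most 2 counts in any library, too few to compare the groups at this depth.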
